A study of Mus musculus with 6 samples.

Results

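The genes described here are 6 genes of endocardial differentiation: the receptor gene *Npr3*, the transcription factor genes *Mef2c* and *Nfatc1*, the ligand genes *Nrg1* and *Tgfb2*, and the junction gene *Cgnl1*. They were taken by name, as the exon probe sets whose array annotation gives 1 of these 6 symbols and no other. This gave 42 of the 77669 probe sets with a single symbol and 6 of 16523 genes. No probe set that named any of the 6 genes also carried a second symbol.

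Expression was measured on Affymetrix GeneChip Mouse Exon arrays in ETV2::GFP+FLK1+CD41- cells, with 3 replicates at embryonic day 8.5 (E8.5) and 3 replicates at E7.5. The dams were ICR and the sires carried ETV2::GFP, so cells of both stages held the reporter. For each replicate 50 cells were sorted and their RNA was amplified before labelling. The GFP transgene marks cells that transcribe *Etv2*, an ETS factor needed to form endothelium and blood. FLK1 is the VEGF receptor encoded by *Kdr*, found on vascular and some other mesoderm progenitors, and cells bearing CD41, a surface marker of early blood commitment, were left out. The sample labels give the stage only. The paper places the E8.5 cells in the embryo proper (EP) and speaks of extra-embryonic ETV2+ cells at E7.5, so stage and site cannot be told apart in this comparison. Whether the 3 replicates of a stage derive from different litters is not given in the sources used here, and the p-values thus reflect only the scatter of these 6 samples, which may be technical in part. In sorted bulk cells, fewer cells that express a gene and less RNA per cell also cannot be told apart.

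The endocardium is the endothelial lining of the heart, and it forms from vascular progenitors close to those that give rise to the myocardium. It signals to the myocardium through neuregulin, which acts on ERBB receptors and is needed for trabeculae to form. In the cushions where valves arise, part of the endocardium undergoes a transition to mesenchyme under TGF-beta and BMP signals, while NFATC1 marks the endocardium that stays endothelial. NPR3 is a natriuretic peptide receptor that clears its ligands, and it is widely used as a marker of endocardium.

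Sequence upstream of the start is given for the pair of genes with the largest difference between the stages, *Npr3* and *Mef2c*, since values of both stood higher in all E8.5 arrays. Each run is the 250 bases before an annotated start in RefSeq on GRCm38.p6, 5′ to 3′ on the strand of the gene. The windows are chr15:11907372-11907621 on the minus strand for *Npr3*, and chr13:83503784-83504033, chr13:83523406-83523655 and chr13:83573357-83573606 on the plus strand for 3 annotated starts of *Mef2c*. Capitals mark matches to TATAAA on either strand, and all other bases are in lower case.
Npr3: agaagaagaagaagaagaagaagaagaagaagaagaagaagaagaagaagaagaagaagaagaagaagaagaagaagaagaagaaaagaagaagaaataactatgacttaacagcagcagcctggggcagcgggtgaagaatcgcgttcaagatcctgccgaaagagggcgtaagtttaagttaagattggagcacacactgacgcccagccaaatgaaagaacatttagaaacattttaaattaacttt
Mef2c start 1: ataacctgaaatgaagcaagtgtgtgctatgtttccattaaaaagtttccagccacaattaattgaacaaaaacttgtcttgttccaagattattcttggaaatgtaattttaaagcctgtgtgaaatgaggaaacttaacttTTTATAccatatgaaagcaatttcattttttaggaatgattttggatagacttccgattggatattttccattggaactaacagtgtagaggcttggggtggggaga
Mef2c start 2: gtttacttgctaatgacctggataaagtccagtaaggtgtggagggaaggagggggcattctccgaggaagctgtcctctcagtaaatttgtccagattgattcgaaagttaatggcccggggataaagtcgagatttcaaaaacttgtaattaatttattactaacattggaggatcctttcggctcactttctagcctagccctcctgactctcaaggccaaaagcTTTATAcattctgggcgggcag
Mef2c start 3: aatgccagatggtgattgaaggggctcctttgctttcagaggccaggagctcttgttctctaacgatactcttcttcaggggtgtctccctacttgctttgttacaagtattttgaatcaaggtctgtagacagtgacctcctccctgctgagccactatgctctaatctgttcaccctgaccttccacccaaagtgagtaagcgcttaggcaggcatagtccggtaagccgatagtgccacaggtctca

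The *Npr3* window is poor in G and C (38.8%), opens with a long run of aga repeats and holds no TATAAA match. The first and second *Mef2c* windows each hold 1 match, read as TTTATA on the printed strand, at 107 and 22 bases before the start, and the third holds none. Their G and C content was 33.6%, 44.8% and 49.6%, against a median of 52.4% over 32851 windows of the same length. TATAAA occurred in 12.4% of those windows on either strand. An ETS motif (CCGGAAG, in 6.91% of windows), a GATA motif (AGATAA, in 9.99%) and a MEF2 motif (CTANNNNTAG, in 3.2%) were also searched on both strands and matched in none of these 4 windows. The TATAAA matches were thus the only ones in these windows, and none overlaps a match to another motif. Probe sets of *Mef2c* were not assigned to these starts, because their positions were not used here. Windows of *Tgfb2* and *Cgnl1* were also matched and are not printed. *Nfatc1* (chromosome 18) and *Nrg1* (chromosome 8) are named only.

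Values are log2 signals as deposited, and each gene takes the median over its probe sets in each array, so that a difference of 1 is a change of 2-fold. Levels of different genes are not compared, because probe sets differ in brightness. At gene level, 0 of the 6 genes passed an adjusted p of 0.05 between E8.5 and E7.5 (limma, Benjamini-Hochberg over all 16523 genes), where 0.109% of all genes passed. The lowest adjusted p of the 6 was 0.30. Before adjustment, 2 of the 6 had p under 0.05, both higher at E8.5, against 7.80% of all genes in either direction and 3.11% in this direction. The same genes, *Npr3* and *Mef2c*, were those whose E8.5 arrays all lay above all E7.5 arrays, which 7.10% of all genes did. They were also the only ones of the 6 to differ by over 2-fold, a limit that 2.72% of all genes exceeded upward. None of the 6 was over 2-fold lower, as 4.79% of all genes were. The other 4 genes overlapped between the stages. The median difference of the 6 was -0.027 on the log2 scale, against 0.0035 over all genes, and 3 of the 6 had a higher and 3 a lower mean at E8.5.

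**Figure D1:**
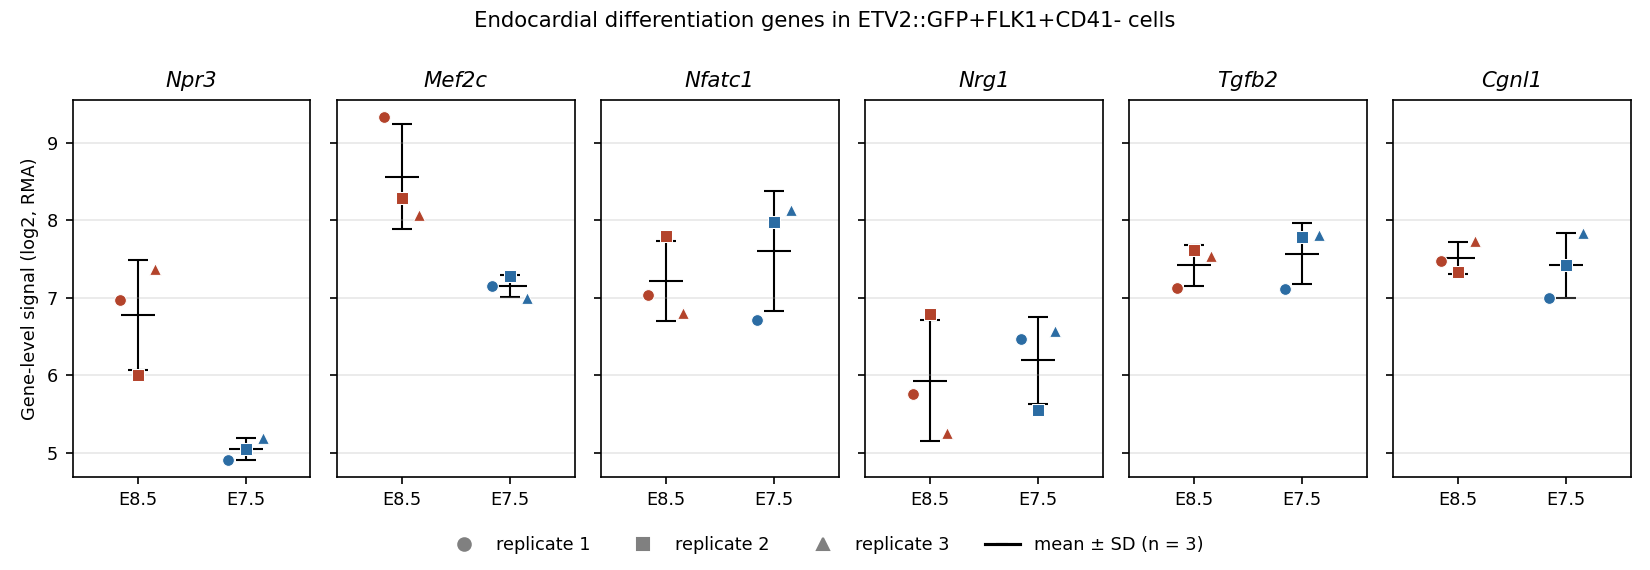
Log2 signal (vertical axis) of each of the 6 genes in the 3 E8.5 arrays (red, left) and the 3 E7.5 arrays (blue, right); symbols mark replicates 1, 2 and 3, and bars give the mean ± SD of 3 arrays. *Npr3* lies between 5.99 and 7.37 at E8.5, above 4.91 to 5.19 at E7.5, and *Mef2c* is separated in the same way, while the stages overlap for the other 4 genes.

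*Npr3*, the clearance receptor, had log2 signals of 6.96, 5.99 and 7.37 in E8.5 replicates 1, 2 and 3, against 4.91, 5.05 and 5.19 in E7.5 replicates 1, 2 and 3. The lowest E8.5 array was thus above the highest E7.5 array, and the E7.5 arrays lay close together. The mean was 6.78 ± 0.71 at E8.5 and 5.05 ± 0.14 at E7.5 (SD, n = 3 each). The difference was 1.73 on the log2 scale (SE 0.37, 95% interval 0.84 to 2.62), a 3.32-fold higher signal at E8.5, with an adjusted p of 0.30 (limma) and rank 168 of 16523 genes by p. An exact permutation test, two-sided, gave p = 0.1, the smallest that 3 arrays against 3 allow. The separation is therefore complete in these arrays without passing the threshold across all genes.

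All 4 probe sets of *Npr3* had a higher mean at E8.5, by 1.09 to 1.73 on the log2 scale, and all 4 by more than 2-fold, which 5.06% of all probe sets exceeded upward. Probe set 4565239 read 6.69, 4.93 and 5.87 at E8.5, against 3.73, 4.61 and 3.95 at E7.5, and was the only one of the 4 without overlap. Probe set 5519409, the brightest, read 9.37, 7.43 and 10.26 at E8.5, against 7.14, 7.49 and 7.47 at E7.5. Its E8.5 replicate 2 lay within the range of the E7.5 arrays, whereas the other two E8.5 arrays stood well above it. E8.5 replicate 2 was the lowest E8.5 array in 3 of the 4 probe sets. The exception was probe set 5038290, which read 3.89, 6.07 and 4.68 at E8.5, against 3.76, 4.20 and 3.40 at E7.5.

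The array that read lowest for *Npr3* at E8.5 also stood apart in cardiomyocyte genes. E8.5 replicate 2 had the highest value of the 3 E8.5 arrays for 8 of 10 cardiomyocyte markers, and the highest of all 6 arrays for 5. *Tnnt2*, cardiac troponin T, read 6.42, 11.08 and 7.95 at E8.5, against 6.88, 8.49 and 9.41 at E7.5. *Actc1*, cardiac actin, read 6.56, 9.96 and 6.68 at E8.5, against 6.04, 6.86 and 7.44 at E7.5. The mean over the 10 markers was 6.72, 8.46 and 6.74 at E8.5, against 7.35, 7.33 and 7.66 at E7.5. Without E8.5 replicate 2 the difference of *Npr3* was 2.12 (adjusted p = 0.12, limma) and that of *Mef2c* 1.56 (adjusted p = 0.51, limma). This array lay below the E8.5 mean for both genes, so both differences had to rise, whatever the cardiac transcripts. Leaving out any other array gave 1.43 to 1.80 for *Npr3*. The part of these cardiac transcripts in the *Npr3* values was not tested, and *Tnnt2* and *Actc1* were picked after their values were seen.

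**Figure D2:**
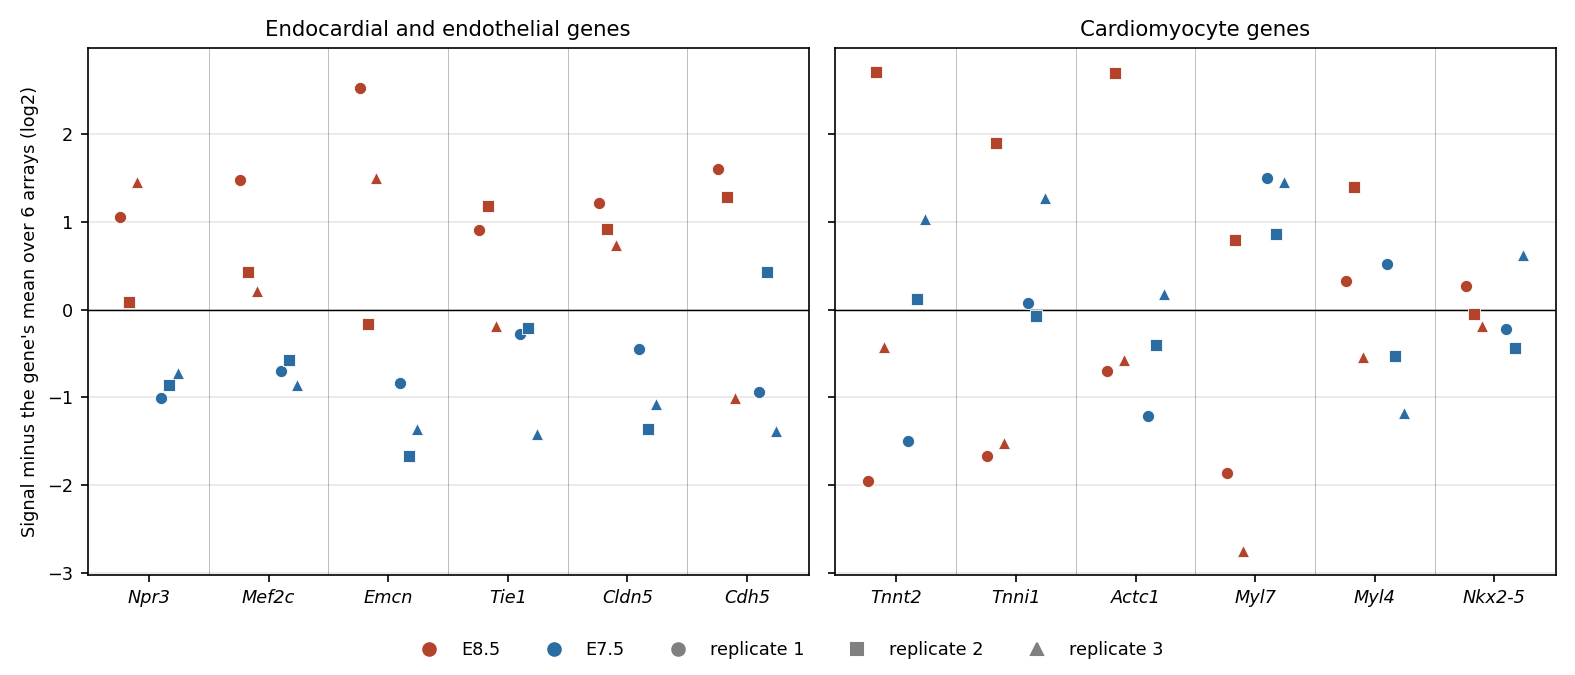
Log2 signal of *Npr3*, *Mef2c*, 4 endothelial genes and 6 cardiomyocyte genes in each array, drawn as the difference from the mean of that gene over the 6 arrays; E8.5 arrays are red and E7.5 arrays blue, with a symbol per replicate. E8.5 replicate 2 (square) is the highest array for *Tnnt2* and *Actc1* and the lowest E8.5 array for *Npr3* and *Emcn*. It is the highest E8.5 array for *Tie1*, and it lies between the other E8.5 arrays for *Mef2c*, *Cldn5* and *Cdh5*. The genes drawn are only part of the marker lists (6 of 10 cardiomyocyte markers), and *Cldn5* is from the tight junction list. All 4 endothelial genes drawn have a higher mean at E8.5. Of the 9 endothelial markers, 6 were higher and 3 lower, and the lower *Flt1*, *Kdr* and *Pecam1* are not drawn.

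The natriuretic peptide receptors are a small family in which NPR1 and NPR2 are guanylyl cyclases that signal through cyclic GMP, and NPR3 lacks the cyclase. All 3 receptor genes had a higher mean at E8.5. *Npr1*, which binds the atrial and brain peptides, read 7.07, 6.92 and 6.42 at E8.5, against 5.75, 5.87 and 5.79 at E7.5. Its stages did not overlap, and the difference was 1.00 (SE 0.22, adjusted p = 0.32, limma), or 1.96 with the brightest probe set alone. *Npr2*, the receptor of C-type peptide, read 6.10, 6.14 and 4.73 at E8.5, against 5.02, 3.93 and 4.49 at E7.5. Here E8.5 replicate 3 fell among the E7.5 arrays, and the difference was 1.17 (SE 0.47, adjusted p = 0.63, limma), but 0.092 with the brightest probe set alone. Of 9 measured genes of the natriuretic system, 0 passed the adjusted threshold. An unadjusted p under 0.05 was found for 2 (*Npr1* and *Npr2*, both higher at E8.5), against 3.11% of all genes in this direction. Of the 9, 5 had a higher and 4 a lower mean at E8.5. The peptide genes *Nppa*, *Nppb* and *Nppc* overlapped between the stages, with differences of -0.11, -0.20 and 0.13. They were picked for their role and not by the rule for named genes.

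*Mef2c*, a MADS-box transcription factor of the heart field and of endothelium, had log2 signals of 9.33, 8.28 and 8.07 at E8.5, against 7.16, 7.28 and 7.00 at E7.5. All E8.5 arrays lay above all E7.5 arrays, with E8.5 replicate 1 more than 1 log2 unit above the other two. The mean was 8.56 ± 0.68 at E8.5 and 7.15 ± 0.14 at E7.5 (SD, n = 3 each). The difference was 1.42 (SE 0.35, 95% interval 0.55 to 2.28), a 2.67-fold higher signal at E8.5, with an adjusted p of 0.38 (limma) and rank 295 of 16523 by p. The exact permutation test, two-sided, gave p = 0.1. Without E8.5 replicate 1 the difference was 1.03, and with the brightest probe set alone it was 0.81.

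All 6 probe sets of *Mef2c* had a higher mean at E8.5, but by very unequal amounts, 0.11 to 2.85 on the log2 scale. There were 3 with over 2-fold and 3 with less. Probe set 4827389 read 8.91, 6.76 and 6.13 at E8.5, against 4.54, 4.43 and 4.27 at E7.5, a difference of 2.85 (SE 0.72). Probe set 5412458 read 9.66, 8.29 and 7.54 at E8.5, against 6.03, 5.01 and 6.02 at E7.5, a difference of 2.81 (SE 0.61, adjusted p = 0.38 over all probe sets, limma). In both the stages were far apart in every array. Probe set 4538745 differed by 2.36, but its values of 9.01, 6.31 and 11.09 at E8.5 overlapped with 6.68, 6.46 and 6.20 at E7.5 through E8.5 replicate 2. Among the other 3, probe set 5177935 was separated (10.10, 9.92 and 10.01 at E8.5, against 9.15, 9.53 and 8.93 at E7.5) and differed by 0.81 (SE 0.23). Probe set 4603235 read 7.78, 8.28 and 7.81 at E8.5, against 7.63, 8.12 and 7.80 at E7.5, a difference of 0.11 with a 95% interval of -0.50 to 0.72. The probe sets of 1 gene read the same RNA and are not replicates, and whether the unequal differences follow exons was not analysed here.

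**Figure D3:**
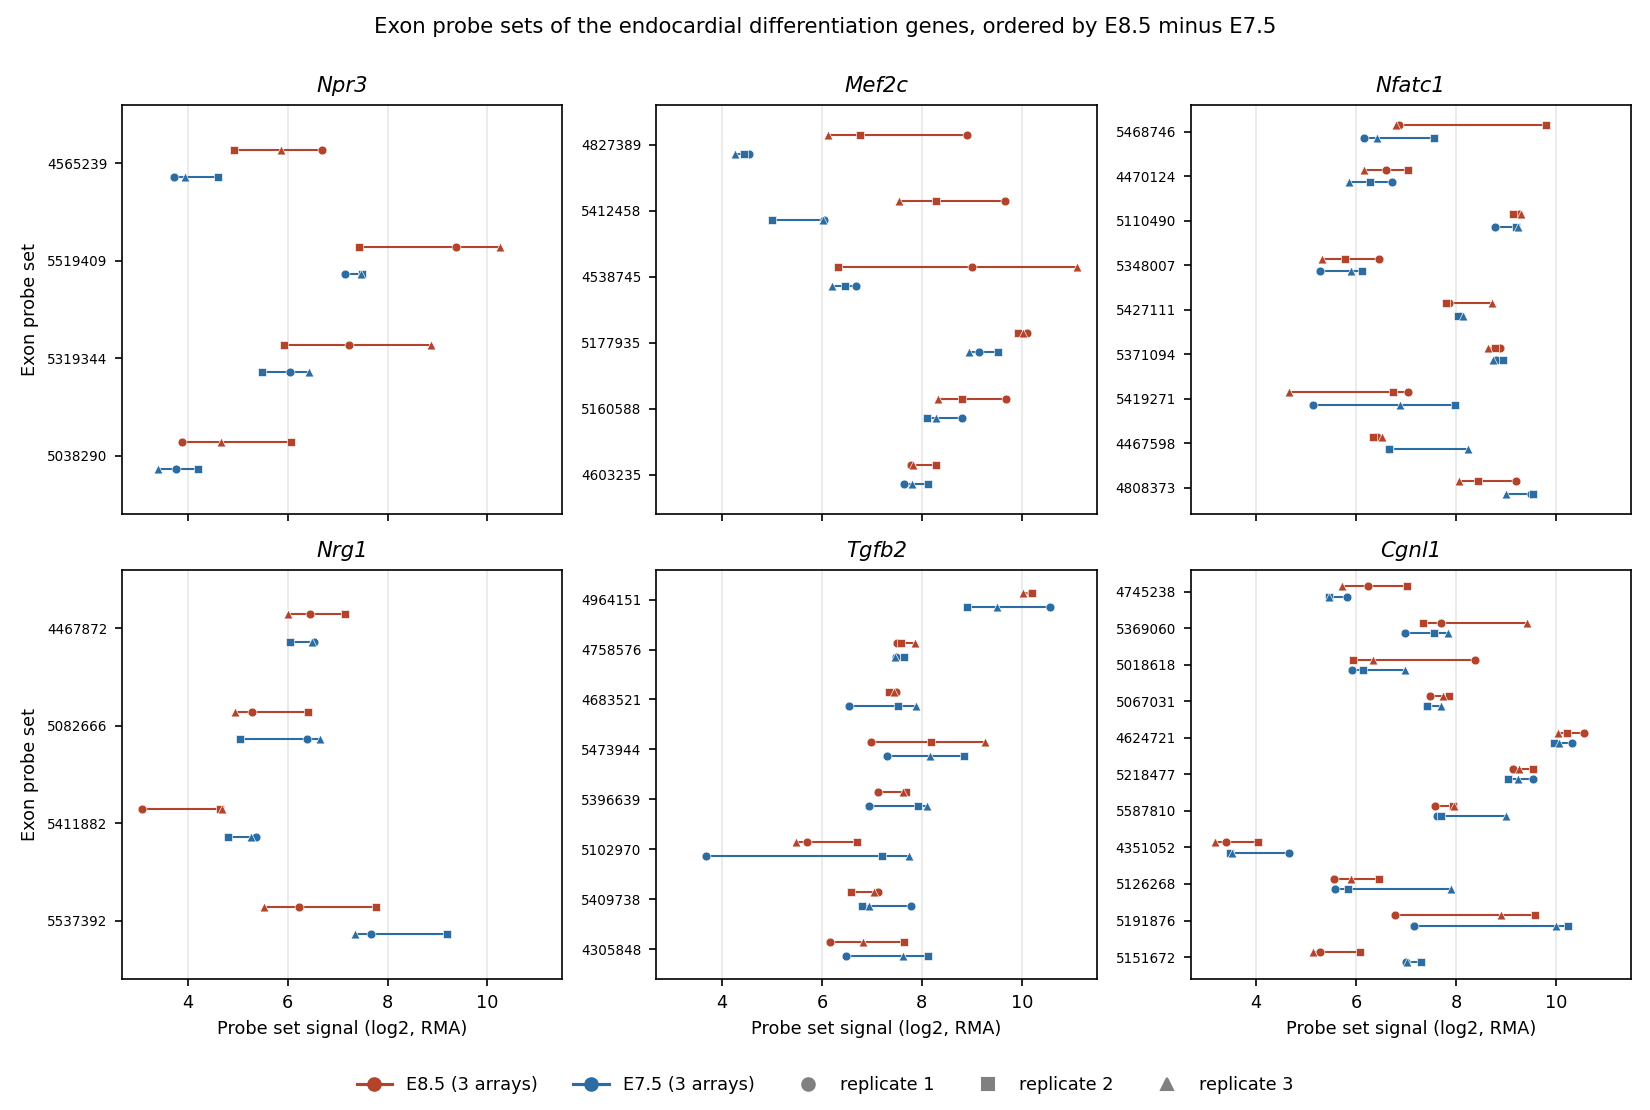
Log2 signal (horizontal axis) of each of the 42 probe sets in each array, grouped by gene and ordered by the difference of the means with the largest at the top; E8.5 arrays are red and E7.5 arrays blue, and each line spans the 3 arrays of a stage. The 4 *Npr3* and 6 *Mef2c* probe sets all have a higher mean at E8.5, with differences of 0.11 to 2.85, while the probe sets of the other 4 genes go both ways.

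The stages overlapped for the other MEF2 genes. *Mef2a* read 7.71, 7.13 and 7.31 at E8.5, against 7.80, 7.14 and 7.10 at E7.5, a difference of 0.04 (95% interval -0.62 to 0.70). *Mef2d* differed by -0.16 (95% interval -0.81 to 0.49), and both intervals lie inside 2-fold. *Mef2b* differed by 0.51, with an interval of -0.56 to 1.59 that reaches past 2-fold. The list of MEF2 factors and class IIa histone deacetylases, the repressors that bind MEF2 proteins, held 12 genes. It also took in *Myocd*, *Cabin1*, *Mapk7*, *Mapk14* and *Map2k5*, which belong to neither class. Of the 12, 0 passed the adjusted threshold, 0 had an unadjusted p under 0.05, and 6 had a higher and 6 a lower mean at E8.5. The median difference over these 12 was 0.016.

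*Nfatc1*, the calcineurin-dependent transcription factor of valve endocardium, had log2 signals of 7.04, 7.79 and 6.80 at E8.5, against 6.71, 7.97 and 8.13 at E7.5. The stages overlapped throughout, and the highest and the lowest values were both at E7.5. The mean was 7.21 ± 0.51 at E8.5 and 7.60 ± 0.78 at E7.5 (SD, n = 3 each), a difference of -0.39 (SE 0.46, 95% interval -1.51 to 0.72, adjusted p = 0.87, limma; exact permutation p = 0.5, two-sided). The interval leaves room for a difference over 2-fold toward E7.5. The value moved to -0.84 without E7.5 replicate 1, -0.68 without E8.5 replicate 2, -0.21 without E7.5 replicate 2, -0.19 without E8.5 replicate 3 and -0.13 without E7.5 replicate 3.

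The 9 probe sets of *Nfatc1* did not share a direction. There were 5 with a higher and 4 with a lower mean at E8.5, and the median of their differences was 0.033, although the difference of the gene medians was -0.39. Probe set 5468746 differed most upward, by 1.11, and its values of 6.85, 9.80 and 6.80 at E8.5, against 6.15, 7.56 and 6.42 at E7.5, show that this rested on E8.5 replicate 2. Probe set 4467598 read 6.41, 6.34 and 6.52 at E8.5, against 6.66, 6.65 and 8.23 at E7.5, and was the only one of the 9 with all E8.5 arrays below all E7.5 arrays. Probe set 5110490 read 9.25, 9.13 and 9.30 at E8.5, against 8.77, 9.19 and 9.23 at E7.5, a difference of 0.16, and it was the brightest of the 9.

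Among the other NFAT genes, *Nfatc3* read 3.27, 3.02 and 3.70 at E8.5, against 4.76, 4.54 and 3.98 at E7.5. All E8.5 arrays were lower, with a difference of -1.09 (SE 0.29, adjusted p = 0.41, limma) over 2 probe sets. *Nfatc4* differed by 0.35 (adjusted p = 0.70, limma), with all E8.5 arrays higher. *Nfatc2* differed by -0.02 (95% interval -0.52 to 0.49), a sign that turned when the arrays were rescaled. *Ppp3r1*, the regulatory subunit of calcineurin, the phosphatase that lets NFAT proteins enter the nucleus, read 7.20, 6.20 and 5.22 at E8.5, against 8.53, 7.53 and 8.98 at E7.5. Its stages did not overlap, and the difference was -2.14 (SE 0.60, adjusted p = 0.44, limma), but -0.76 with probe sets above the median and -0.20 with the brightest probe set alone. Over the 16 measured genes of calcineurin and NFAT signalling, 0 passed the adjusted threshold. The 2 with an unadjusted p under 0.05 were these lower ones, *Nfatc3* and *Ppp3r1*, against 4.68% of all genes in this direction. The list had 7 genes with a higher and 9 with a lower mean at E8.5, and a median difference of -0.012.

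*Nrg1*, the endocardial ligand of ERBB receptors, had log2 signals of 5.76, 6.78 and 5.25 at E8.5, against 6.46, 5.55 and 6.57 at E7.5. The stages overlapped, and E8.5 replicate 2 was the highest array of all 6. The mean was 5.93 ± 0.78 at E8.5 and 6.19 ± 0.56 at E7.5 (SD, n = 3 each), a difference of -0.26 (SE 0.47, 95% interval -1.41 to 0.88, adjusted p = 0.92, limma; exact permutation p = 0.8, two-sided). The difference was negative in 3 of its 4 probe sets, over a range of -1.56 to 0.19. Probe set 5537392 read 6.23, 7.77 and 5.53 at E8.5, against 7.68, 9.19 and 7.35 at E7.5, and overlapped through E8.5 replicate 2. Probe set 5411882 read 3.09, 4.65 and 4.70 at E8.5, against 5.37, 4.80 and 5.27 at E7.5, a difference of -1.01 (adjusted p = 0.76 over all probe sets, limma), and its stages did not overlap. Without E8.5 replicate 3 the gene-level difference had the other sign, and with the brightest probe set alone it was -1.56.

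The receptors of this pathway differed by less than 2-fold. *Erbb2*, the co-receptor without a ligand of its own, differed by 0.20 (95% interval -0.45 to 0.84). *Erbb3* differed by -0.01 (95% interval -0.39 to 0.37), and *Erbb4*, the receptor that meets neuregulin in the myocardium, by -0.05 (95% interval -0.54 to 0.45). All 3 intervals lie inside 2-fold, and the signs of *Erbb3* and *Erbb4* turned when the arrays were rescaled. The list of neuregulins, other ERBB ligands and ERBB receptors held 18 measured genes. It also took in *Adam10*, *Adam17*, *Adam19*, *Bace1* and *Errfi1*, which are neither ligands nor receptors. Of the 18, 0 passed the adjusted threshold. An unadjusted p under 0.05, which 7.80% of all genes had, was found for 1. This was *Ereg*, epiregulin, which read 6.21, 6.24 and 6.10 at E8.5, against 6.72, 6.82 and 6.52 at E7.5 (difference -0.50, adjusted p = 0.55, limma). There were 11 genes with a higher and 7 with a lower mean at E8.5, and the median difference was 0.15.

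*Tgfb2*, the TGF-beta ligand of cushion formation, had log2 signals of 7.12, 7.61 and 7.54 at E8.5, against 7.12, 7.78 and 7.81 at E7.5. The values of both stages covered nearly the same range. The mean was 7.42 ± 0.26 at E8.5 and 7.57 ± 0.39 at E7.5 (SD, n = 3 each), a difference of -0.15 (SE 0.27, 95% interval -0.79 to 0.50, adjusted p = 0.92, limma; exact permutation p = 0.6, two-sided). The interval lies inside 2-fold. Its 8 probe sets were split evenly, with 4 higher and 4 lower at E8.5, from -0.53 to 0.47. The widest scatter was in probe set 5102970, with 5.69, 6.70 and 5.47 at E8.5, against 3.68, 7.20 and 7.74 at E7.5. No *Tgfb2* probe set separated the stages.

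The related ligands and receptors also overlapped. *Tgfb1*, with a difference of 0.48, and *Tgfb3*, with -0.28, had adjusted p-values of 0.85 and 0.84 (limma). *Tgfbr2*, the type II receptor, differed by -0.02 (95% interval -0.73 to 0.68), which also changed sign on rescaling. *Tgfbr1*, the type I receptor, read 9.29, 3.59 and 4.86 at E8.5, against 3.53, 7.39 and 6.41 at E7.5, a scatter that left a 95% interval of -3.95 to 4.23. Betaglycan, the co-receptor for TGFB2 encoded by *Tgfbr3*, read 6.07, 7.38 and 6.97 at E8.5, against 8.85, 9.05 and 6.68 at E7.5. Its lowest value was in E7.5 replicate 3, so the stages overlapped, and the difference was -1.38 (SE 0.70, adjusted p = 0.72, limma). The list of TGF-beta ligands, receptors and SMADs held 20 measured genes. It also took in *Ltbp1* to *Ltbp4*, *Thbs1*, *Ski*, *Skil*, *Tgif1* and *Smurf2*, which belong to none of these classes. Of the 20, 0 passed the adjusted threshold, 0 had an unadjusted p under 0.05, and 12 had a higher and 8 a lower mean at E8.5.

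**Figure D4:**
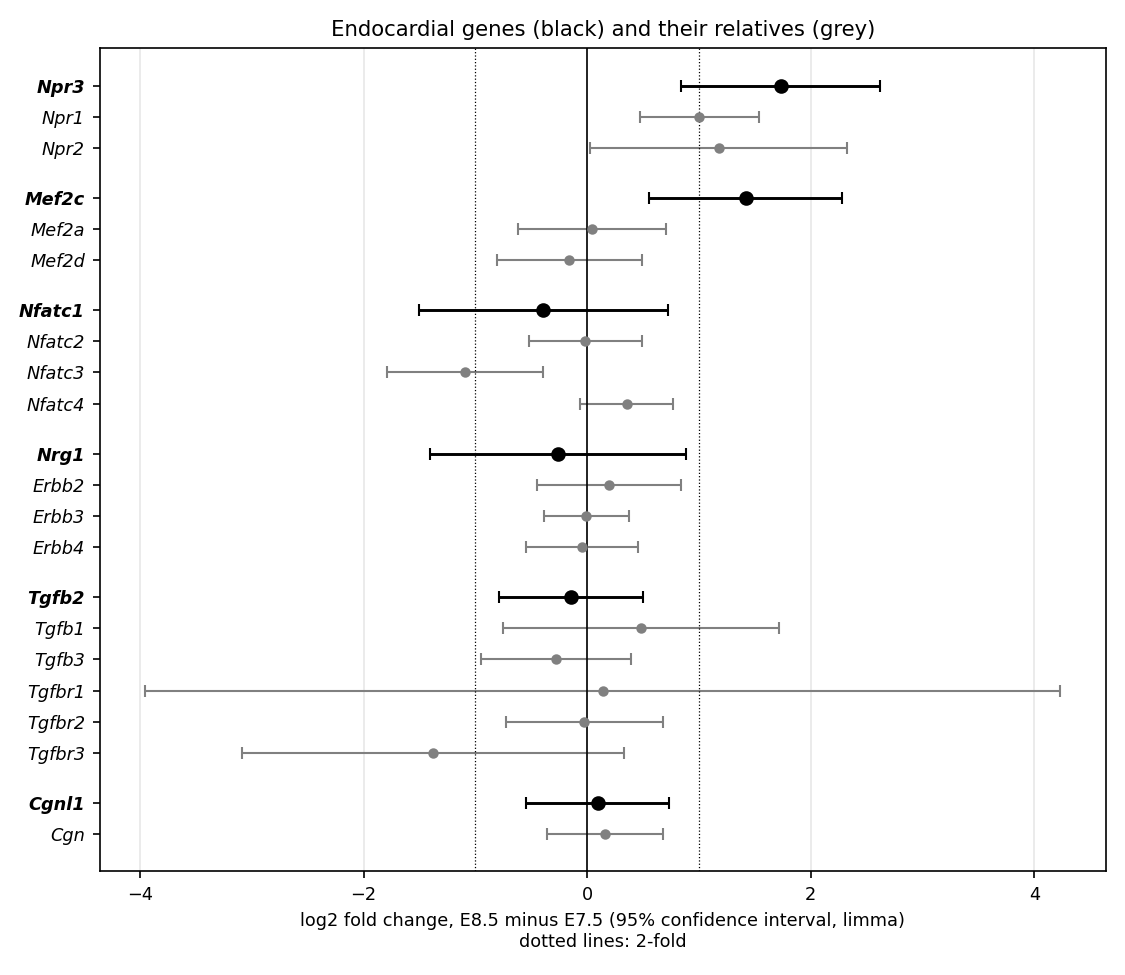
Difference in log2 signal, E8.5 minus E7.5 (horizontal axis), of the 6 genes and of related receptors, ligands and family genes, with the 95% interval from limma; dotted lines mark 2-fold. The intervals of *Npr3* (0.84 to 2.62) and *Mef2c* (0.55 to 2.28) lie above 0, those of *Tgfb2* and *Cgnl1* lie inside 2-fold, and that of *Tgfbr1* is the widest.

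*Cgnl1* encodes paracingulin, a cytoplasmic protein of tight and adherens junctions. It had log2 signals of 7.47, 7.33 and 7.73 at E8.5, against 7.00, 7.42 and 7.84 at E7.5. The E8.5 values lay inside the range of the E7.5 values. The mean was 7.51 ± 0.21 at E8.5 and 7.42 ± 0.42 at E7.5 (SD, n = 3 each), a difference of 0.093 (SE 0.26, 95% interval -0.55 to 0.73, adjusted p = 0.96, limma; exact permutation p = 0.9, two-sided), again inside 2-fold.

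The 11 probe sets of *Cgnl1* held the lowest adjusted p of all 42, in the direction of E7.5. Probe set 5151672 read 5.28, 6.08 and 5.13 at E8.5, against 7.00, 7.29 and 7.01 at E7.5. Every E8.5 array was below every E7.5 array, with a difference of -1.60 (SE 0.31, adjusted p = 0.32 over all probe sets, limma). The other 10 probe sets of the gene overlapped between the stages, and their differences ran from -0.72 to 0.74. Probe set 4745238, at the upper end, read 6.23, 7.01 and 5.71 at E8.5, against 5.82, 5.45 and 5.45 at E7.5. The brightest, 4624721, read 10.56, 10.22 and 10.03 at E8.5, against 10.31, 9.95 and 10.06 at E7.5. The *Cgnl1* value per gene thus holds 1 probe set that departs from the rest.

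Over all 42 probe sets, 0 passed an adjusted p of 0.05 (limma over 77669 probe sets), where 0.0824% of all probe sets passed, and 5 had an unadjusted p under 0.05, against 6.99%. These 5 were 3 of *Mef2c*, 1 of *Npr3* and 1 of *Cgnl1*. All E8.5 arrays were above all E7.5 arrays in 4 probe sets, 3 of *Mef2c* and 1 of *Npr3*, against 6.59% of all probe sets. They were below in 3, of *Nfatc1*, *Nrg1* and *Cgnl1* with 1 each, against 7.33%. A mean over 2-fold higher at E8.5 was seen in 8 probe sets, 4 of *Npr3*, 3 of *Mef2c* and 1 of *Nfatc1*, against 5.06% of all probe sets, and a mean over 2-fold lower in 3, 2 of *Nrg1* and 1 of *Cgnl1* (8.80% of all probe sets).

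*Cgn*, cingulin, the nearest relative of *Cgnl1*, differed by 0.16 (adjusted p = 0.89, limma). *Cldn5*, the claudin of endothelial tight junctions, read 11.60, 11.31 and 11.12 at E8.5, against 9.94, 9.02 and 9.31 at E7.5 on a single probe set. The stages were more than 1 log2 unit apart at their nearest arrays, and the difference was 1.92 (SE 0.29). Its adjusted p of 0.14 (limma) was the lowest among all related genes. *Racgap1*, a regulator of cell division, read 9.91, 8.62 and 7.74 at E8.5, against 10.04, 9.95 and 10.38 at E7.5, a difference of -1.36 (adjusted p = 0.61, limma). Of the 14 measured genes of cingulin partners and endothelial tight junctions, 0 passed the adjusted threshold. *Cldn5* and *Racgap1* had an unadjusted p under 0.05, as 7.80% of all genes did. Of the 14, 8 had a higher and 6 a lower mean at E8.5.

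Genes of endocardium and cushion formation other than the 6 had a higher mean at E8.5 in 24 of 36 measured cases and a lower one in 12. Their median difference was 0.12, against 0.0035 over all genes, and 0 of the 36 passed the adjusted threshold. There were 7 with an unadjusted p under 0.05, 6 higher and 1 lower at E8.5, against 3.11% and 4.68% of all genes in these directions. *Emcn*, endomucin, a surface sialomucin of venous endothelium and endocardium, read 9.00, 6.30 and 7.97 at E8.5, against 5.62, 4.80 and 5.10 at E7.5 (difference 2.58, SE 0.68, adjusted p = 0.42, limma). E8.5 replicate 2 was its lowest E8.5 array, as for *Npr3*. Over the 36 genes, though, that array was the lowest of E8.5 for 9 and the highest for 19. *Dll4*, a Notch ligand of endothelium, read 7.97, 8.14 and 8.17 at E8.5, against 6.79, 7.29 and 7.25 at E7.5 (difference 0.98, adjusted p = 0.28, limma). *Gata5*, a zinc finger factor of endocardium, read 5.38, 5.74 and 5.80 at E8.5, against 5.00, 4.99 and 4.60 at E7.5 (difference 0.77, adjusted p = 0.43, limma). It rests on a single probe set and lay below the array median in all 6 arrays. The stages did not overlap for any of these 3 genes. The other 3 higher ones were *Hey1*, *Plvap* and *Tie1*. The lower one was *Bmp2*, a cushion-inducing ligand of the myocardium, which read 6.15, 5.59 and 5.84 at E8.5, against 6.54, 6.55 and 6.88 at E7.5 (difference -0.80, SE 0.22, adjusted p = 0.43, limma). With the mean over probe sets the *Bmp2* difference was -0.42 and with the brightest probe set -0.10, whereas those of *Emcn* and *Dll4* were 4.52 and 2.05 with the brightest.

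Across the 7 lists of related genes together, 0 of 125 genes passed the adjusted threshold, where 0.109% of all genes passed. An unadjusted p under 0.05 was found for 14 (11.2%), 9 higher and 5 lower at E8.5, against 7.80% of all genes. There were 73 genes with a higher and 52 with a lower mean, and the median difference was 0.10.

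**Figure D5:**
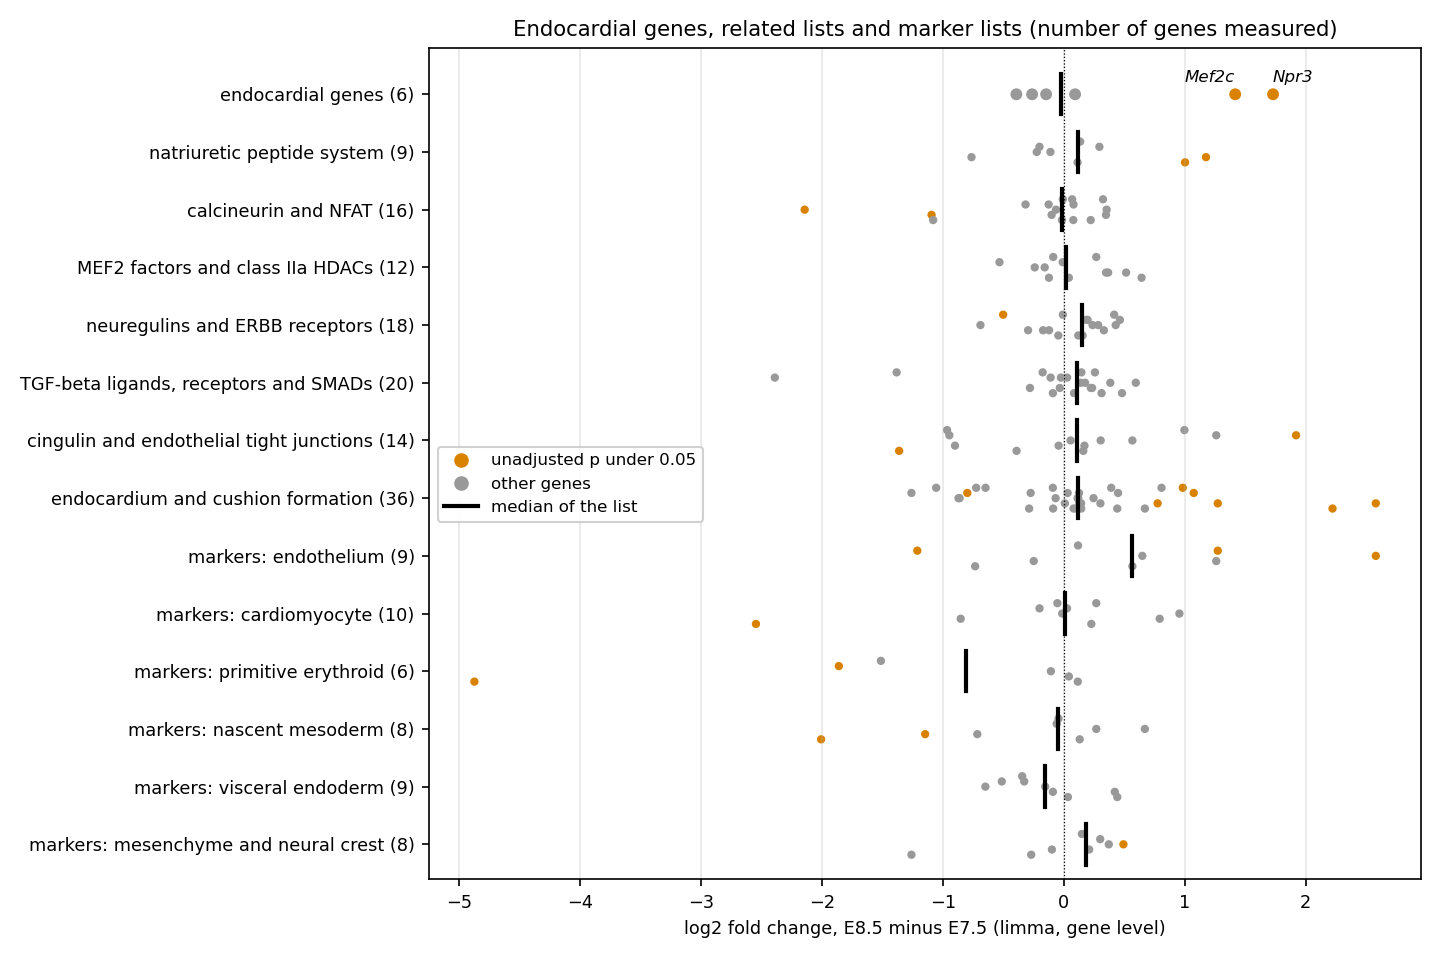
Difference in log2 signal, E8.5 minus E7.5, of the 6 genes and of each measured gene of the 7 related lists and 6 marker lists; orange points have an unadjusted p under 0.05, and the black bar marks the list median. The medians of the 6 genes and the related lists lie between -0.027 and 0.15, and *Hbb-bh1* at -4.87 is the only gene drawn that passed an adjusted p of 0.05.

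The genes of the sort itself were also read. *Etv2* read 11.60, 10.93 and 11.48 at E8.5, against 11.66, 12.09 and 11.72 at E7.5 (difference -0.49, adjusted p = 0.72, limma), so it lay above the array median in all 6 arrays. *Kdr* differed by -0.73 and *Itga2b*, the gene of CD41, by -0.52, with adjusted p of 0.73 and 0.67 (limma), though with the brightest probe set alone both had the other sign. *Itga2b* read 7.74, 7.84 and 7.58 at E8.5, against 7.85, 8.41 and 8.45 at E7.5. It too lay above the array median in all 6 arrays, although cells bearing CD41 were left out, so this position does not test the sort. The mean over 9 endothelial markers was 8.26, 8.19 and 7.77 at E8.5, against 7.45, 8.29 and 7.06 at E7.5, and overlapped. These markers went both ways. *Emcn* and *Tie1* (difference 1.27) had an unadjusted p under 0.05 toward E8.5, and *Flt1*, a VEGF receptor, toward E7.5 (difference -1.21, adjusted p = 0.59, limma). With the brightest probe set alone *Tie1* differed by only 0.025 and *Flt1* by -0.28. The mean over 6 primitive erythroid markers was 5.97, 6.11 and 5.94 at E8.5, against 7.52, 7.52 and 7.08 at E7.5. It was carried by *Hbb-bh1*, *Gata1* (difference -1.86) and *Epor* (-1.51), while *Klf1* (-0.11), *Hba-x* (0.04) and *Alas2* (0.11) lay near 0, and the median of the 6 differences was -0.81, or 0.041 over those left with genes above the median only. *Hbb-bh1* passed the adjusted threshold (difference -4.87, adjusted p = 0.046, limma) but no longer did so without any 1 of the 6 arrays. The part of this in the values of the 6 genes was not tested. The array medians lay between 6.98 and 7.07, and correlations over the values of all 16523 genes were 0.876 to 0.886 among E8.5 arrays, 0.884 to 0.896 among E7.5 arrays and 0.855 to 0.881 between the stages.

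Genes with profiles most like those of the 6 were sought over all genes, as the smallest root mean square difference between profiles over the 6 arrays after each was centred on its own mean. For *Npr3* these were *Sertad2* (0.14 log2 units), *Tbx3* (0.22) and *Aktip* (0.23), and 52 genes lay within 0.5. For *Mef2c* they were *Igfbp5* (0.18), *Dolk* (0.19) and *Hoxa7* (0.19), with 243 genes within 0.5. Many more genes lay near the profiles of the other 4, which spread less over the 6 arrays. *Nfatc1* was nearest to *Pofut1* (0.13), *4930405P13Rik* (0.15) and *Med8* (0.16), and *Nrg1* to *AU019823* (0.11), *Frk* (0.15) and *Doxl2* (0.15), with 1485 and 1775 genes within 0.5. *Tgfb2* was nearest to *Etv6* (0.070), *Gabrp* (0.074) and *Clnk* (0.075), and *Cgnl1* to *Snrpc* (0.058), *Slc4a4* (0.068) and *Fbxl8* (0.070). Within 0.5 there were 10032 genes for *Tgfb2* and 10149 for *Cgnl1*, well over the count for the other genes. Their own root mean square deviations over the 6 arrays were 0.28 and 0.27, so even a flat gene counted, and these counts do not show shared profiles.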

How the data were processed

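The values, as deposited, are log2 signals per exon probe set after RMA. The submitters' processing notes also name Affymetrix Power Tools. Neither versions nor the choice of the 90788 probe sets in the table are given in the sources used here. RMA equalises the arrays, so a change in total RNA would not show, and amplification from 50 cells adds spread. No detection calls were used, so signal over background is unknown. Probe sets were named through the array annotation: 77669 carried a single symbol and were kept, 654 carried more than 1, and 12465 had none listed. Gene values were medians over probe sets (median of 3 per gene). Groups came from the sample labels. E8.5 minus E7.5 was fitted in R 4.3.3 with limma 3.58.1 (lmFit, eBayes), adjusted by Benjamini-Hochberg over all genes or probe sets, threshold 0.05, and the code was checked on simulated data.

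Named were the 6 genes, fixed receptors and relatives, from each list up to 3 genes in either direction by lowest p among those under 0.05, and the 3 nearest profiles. The 6 genes and the lists were chosen with earlier results of these data known. Some listed genes are not reported here. Alternatives covered the value per gene, normalization, a filter on dim genes, variance trend, a replicate block and leaving out each array.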

Additional observations from a re-analysis of the deposited data

How the results depend on the processing

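None of the 6 genes passed the adjusted threshold in any of 14 alternatives (lowest adjusted p 0.12 to 0.70, limma), nor did any related gene (0.12 to 0.32), and 0 of the 42 probe sets passed in 11 (0.20 to 0.55). *Npr3* stayed higher at E8.5 in all 13 alternatives that kept it (1.43 to 2.12) and *Mef2c* in all 14 (0.81 to 1.66). The count over all genes was far less stable, at 18 genes with the settings used, 11 with the mean over probe sets, 9 with the brightest probe set, 0 with probe sets above the median only, 0 with genes above the median only, and 0 to 12 with 1 array left out, and the cause was not tested. With the replicate number as a block, 0 of all genes passed (lowest adjusted p 0.40 for the 6 genes, 0.31 for related genes and 0.55 for the probe sets). Deviations of same-numbered arrays correlated at 0.0074, -0.0083 and -0.00082, so no shared deviation was seen. How litters or batches were spread over the arrays cannot be read from these correlations. *Npr3* and *Nrg1* were dropped with genes above the median only.

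Signs also turned, mostly of differences under 0.5 but also of *Tgfbr3*, *Kdr* and *Itga2b*, and the cause was not tested. With the brightest probe set the differences were 0.16 for *Nfatc1*, 0.47 for *Tgfb2*, -0.0029 for *Nfatc4*, -0.037 for *Mef2a*, 0.081 for *Erbb3*, 0.29 for *Erbb4*, 0.063 for *Tgfbr3*, 0.078 for *Kdr*, 0.69 for *Itga2b* and -0.26 for *Col1a1*. With the mean over probe sets they were -0.095 for *Cgnl1*, -0.097 for *Mef2a* and 0.15 for *Erbb4*, and with probe sets above the median -0.11 for *Mef2a* and 0.081 for *Erbb3*. With array medians subtracted they were 0.031 for *Nfatc2*, 0.039 for *Erbb3*, 0.0013 for *Erbb4* and 0.023 for *Tgfbr2*, and with quantile normalization again 0.037, 0.035, 0.0055 and 0.043 for the same genes in this order. Leaving out 1 array gave -0.84 to -0.13 for *Nfatc1*, -0.69 to 0.078 for *Nrg1*, -0.37 to 0.0044 for *Tgfb2*, -0.12 to 0.30 for *Cgnl1*, -0.10 to 0.14 for *Nfatc2*, -0.12 to 0.27 for *Mef2a*, -0.31 to 0.076 for *Mef2d*, -0.040 to 0.032 for *Erbb3*, -0.20 to 0.081 for *Erbb4*, -0.043 to 0.77 for *Tgfb1*, -1.55 to 1.30 for *Tgfbr1* and -0.24 to 0.19 for *Tgfbr2*. Without 1 array of a group, the 2 left stand for its spread, and 3 arrays per stage limit the precision throughout.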

Other observations

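Markers of other cells that the sort could hold were also read. Of 8 nascent mesoderm genes 0 passed the adjusted threshold. *T* and *Lhx1*, factors of the primitive streak and early mesoderm, had an unadjusted p under 0.05. Both were lower at E8.5, as 4.68% of all genes were at this p. The list went both ways, with 3 genes higher and 5 lower in mean and a median difference of -0.052. *Tbx6* (0.67) and *Mesp2* (0.27), named after their values were seen, had all E8.5 arrays above all E7.5 arrays. *T* read 8.00, 9.55 and 7.02 at E8.5, against 10.34, 9.49 and 10.76 at E7.5 (difference -2.01, adjusted p = 0.55, limma), and overlapped through E8.5 replicate 2. *Lhx1* read 4.32, 4.98 and 5.04 at E8.5, against 5.65, 6.57 and 5.57 at E7.5 (difference -1.15, adjusted p = 0.50, limma), without overlap. With the brightest probe set alone the differences were -0.88 for *T* and -0.13 for *Lhx1*. *Myl7*, an atrial myosin light chain, read 7.97, 10.63 and 7.09 at E8.5, against 11.34, 10.70 and 11.29 at E7.5 (difference -2.55, adjusted p = 0.56, limma). It was the only one of 10 cardiomyocyte markers with an unadjusted p under 0.05. Of 9 visceral endoderm genes 0 had an unadjusted p under 0.05, and of 8 mesenchyme and neural crest genes only *Col1a1* did, with a difference of 0.49 that had the other sign with the brightest probe set.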
